A study of Mus musculus with 12 samples.

Results

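The 6 genes described here belong to the core pluripotency network and were measured in 12 RNA libraries of mouse embryonic stem (ES) cells and embryoid bodies. They are Pou5f1 (which encodes Oct4), Sox2, Nanog, Sall4, Utf1 and L1td1, taken by name, and 6 of the 54537 genes listed carry these names. Wild type cells (WT) and a knockout line whose label reads WT+1343KO-a14 (the 1343KO line below) were each sampled on days 0, 8 and 16, with 2 libraries per group. On day 0 the cells grew on gelatin in medium with serum and LIF, the cytokine that holds ES cells undifferentiated, and on days 8 and 16 they were embryoid bodies, floating aggregates kept in serum without LIF. The study knocked out long noncoding RNA genes, and its title ties the small nucleolar RNA SNORA73 to the exit from pluripotency. The question here is how the core genes behaved as each line was taken out of the conditions that keep ES cells undifferentiated. The labels do not say which gene 1343 is, and a single 1343KO line stands against a single WT line.

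Oct4, a POU domain factor, and Sox2, a high mobility group factor, bind DNA side by side at composite sites and together switch on ES cell genes, their own included. Nanog, a homeodomain factor, works with them, and Sall4, a zinc finger factor, binds Oct4 and Nanog and many of the same genes. Utf1 is a chromatin-bound protein of ES cells and an early known target of Oct4 and Sox2, and L1td1 is an RNA-binding protein derived from a LINE-1 transposon and found in pluripotent cells. When ES cells differentiate, these genes are normally turned down, while Sox2 is also used in neural progenitors, Sall4 in extraembryonic endoderm and most of them in germ cells.

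The genes lie on different chromosomes of GRCm38, and none lies on chromosome 8 or Y. Pou5f1 (ENSMUSG00000024406) is on chromosome 17 at 35506018 to 35510772, with 5 exons in its longest transcript, and Sox2 (ENSMUSG00000074637) is a gene of 1 exon on chromosome 3 at 34650405 to 34652461. Nanog (ENSMUSG00000012396) is on chromosome 6 at 122707489 to 122714633 and Sall4 (ENSMUSG00000027547) on the minus strand of chromosome 2 at 168748332 to 168767943. Utf1 (ENSMUSG00000047751) is on chromosome 7 at 139943789 to 139945112 and L1td1 (ENSMUSG00000087166) on chromosome 4 at 98726734 to 98738480. Another 3 genes overlap them, and how reads were assigned by strand is not given in the sources used here, so those reads cannot be told apart. They were low in every library: Gm19553, antisense to Pou5f1, reached 3.27 FPKM, Sox2ot, within which Sox2 lies, 1.10 FPKM, and Gm14261, which overlaps Sall4, 0.696 FPKM. The pseudogenes Nanog-ps1 and Nanog-ps2 were listed at 0 in all 12 libraries. FPKM is fragments per kilobase of transcript, scaled to the fragments of the library, so levels can be compared between genes.

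The stretches just upstream of the start sites of these genes were searched for the letters that Oct4 and Sox2 read. RefSeq promoter windows (GRCm38.p6) were matched for 5 of the 6 genes, Sall4 being the one without a match, and the 250 bases before each RefSeq start were searched on both strands. The letters searched included the octamer that POU factors read, ATGCAAAT. For Sox factors the letters CATTGT were searched, and likewise their close variant, spelled CTTTGT. The GC box was spelled GGGCGG, and the TATA box of many core promoters TATAAA. The composite Sox-octamer element, in which a Sox site stands 1 base from an octamer, was searched as well. The octamer without its last base, ATGCAAA, and a composite element that ends with it were added after the windows had been read, and these overlap the octamer and Sox letters. Each sequence below is the plus strand and has the matches in capitals. It ends before the RefSeq start, or before the GENCODE M21 gene where that begins sooner. Distances count from the RefSeq start, which for Sox2 is 34649995, upstream of the GENCODE start at 34650405. Nanog is chr6:122707239-122707488, Sox2 chr3:34649745-34649994, Pou5f1 chr17:35505782-35506017 and Utf1 chr7:139943606-139943788.
Nanog: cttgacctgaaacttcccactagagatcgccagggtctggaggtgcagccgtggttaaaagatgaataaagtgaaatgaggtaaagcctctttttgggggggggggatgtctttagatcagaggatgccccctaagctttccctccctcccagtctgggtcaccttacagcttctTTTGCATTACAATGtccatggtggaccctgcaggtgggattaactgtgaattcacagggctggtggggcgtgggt
Sox2: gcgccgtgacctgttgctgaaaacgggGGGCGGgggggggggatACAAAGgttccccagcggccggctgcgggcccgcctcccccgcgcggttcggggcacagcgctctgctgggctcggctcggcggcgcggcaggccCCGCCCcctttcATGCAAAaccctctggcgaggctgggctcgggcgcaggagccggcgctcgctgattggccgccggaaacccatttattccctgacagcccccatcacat
Pou5f1: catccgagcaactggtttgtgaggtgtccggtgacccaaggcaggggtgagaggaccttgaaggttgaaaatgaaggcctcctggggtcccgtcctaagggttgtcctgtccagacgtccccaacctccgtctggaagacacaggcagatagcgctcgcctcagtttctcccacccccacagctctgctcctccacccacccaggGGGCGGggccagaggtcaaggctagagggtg
Utf1: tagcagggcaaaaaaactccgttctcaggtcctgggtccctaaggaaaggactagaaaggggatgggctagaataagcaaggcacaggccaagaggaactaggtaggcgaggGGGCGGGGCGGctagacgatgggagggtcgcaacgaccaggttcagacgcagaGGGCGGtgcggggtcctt
The Nanog window holds TTTGCATTACAATG from 75 to 62 bases before its start, which on the minus strand is the shorter composite element, a Sox match and an octamer match side by side. Of 32851 mouse windows of this length 3 hold that element, 2 of them Nanog's own alternative windows and 1 of Astn1. The element was spelled after the Nanog window had been read, so its presence there was known beforehand and the share is no test. The Sox2 window holds ATGCAAA, found in 4.12% of all windows, from 99 to 93 bases before the start, a CTTTGT on the minus strand (16.5% of windows) and 2 GC boxes. Pou5f1 holds 1 GC box and Utf1 holds 4, of which 2 overlap by a base and 1 lies past the printed stretch, where 32.7% of all windows hold at least 1. L1td1 held none of these letters, and ATGCAAAT (1.60% of windows), the full composite element (3 of 32851) and TATAAA (12.4%) were in none of the 5. CATTGT is in 10.7% of windows. A match describes the letters and shows no binding. Sequence outside these windows was not searched, so a window without a match does not show that the gene lacks such a site.

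Pou5f1 was the most abundant of the 6 in WT ES cells, at 762 and 761 FPKM in the 2 libraries. It was followed by L1td1 (378 and 389 FPKM), Utf1 (285 and 283), Sox2 (174 and 168), Nanog (142 and 153) and Sall4 (58.2 and 55.6). No neighbours in this order overlapped between libraries. Among the 16289 genes tested, Pou5f1 ranked 89 and 93 by level in those libraries and Sall4 1354 and 1437. Together the 6 genes held 0.375% and 0.376% of all FPKM in WT at day 0. By day 8 this share of the WT libraries stood at 0.0319% and 0.0333%, and by day 16 at 0.0195% and 0.0193%. The 1343KO libraries gave 0.392% and 0.380% on day 0, then 0.254% and 0.250%, and finally 0.235% and 0.241%.

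**Figure D1:**
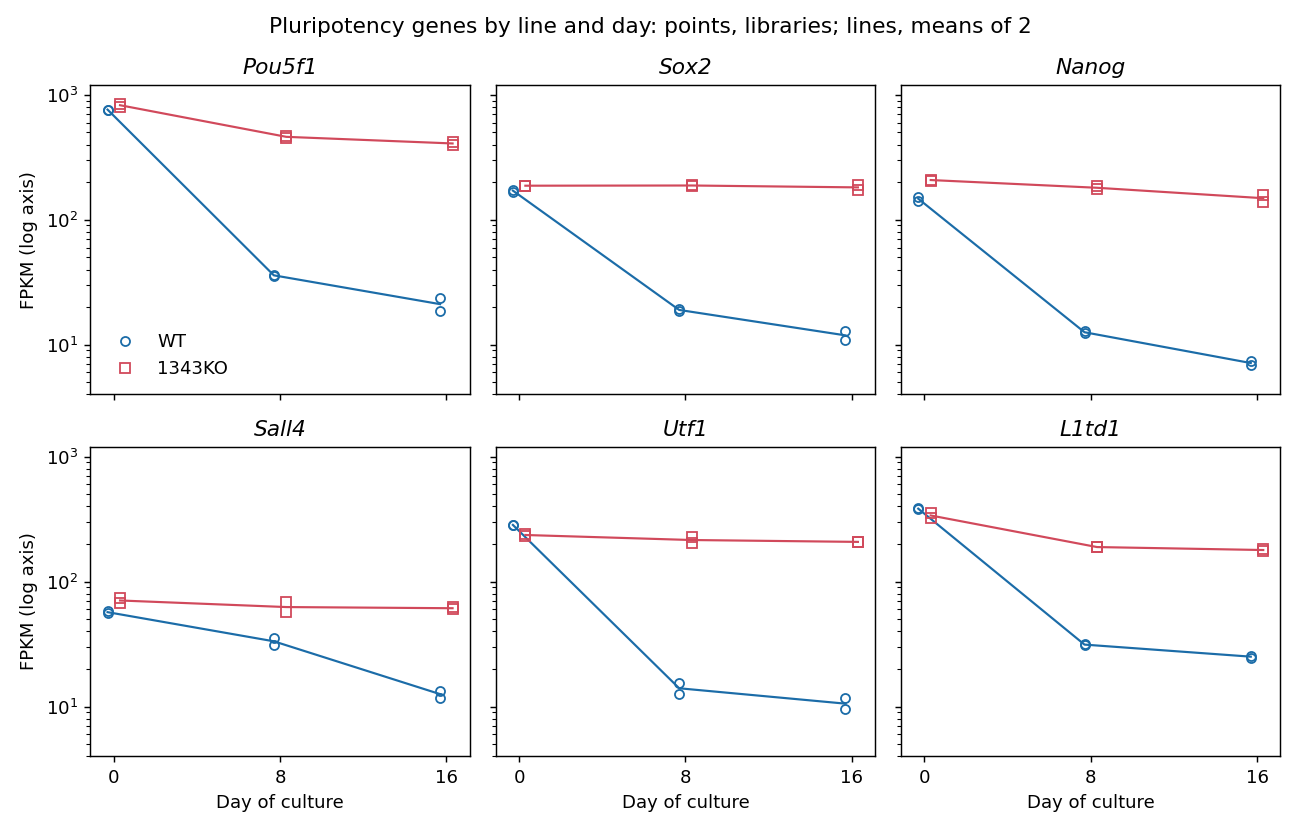
FPKM (log axis) of each gene against the day of culture, with circles for the 2 WT libraries and squares for the 2 1343KO libraries of each day and lines through their means. The lines lie close together on day 0 and apart on days 8 and 16, where every 1343KO library is above every WT library for all 6 genes.

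The depth of the libraries is not given in the sources used here. Estimated from the smallest steps in the values, the libraries held about 4814000 to 7912000 fragments, and the 6 genes about 65 (Utf1, WT day 16 replicate 1) to 7775 (L1td1, WT day 0 replicate 1) fragments each. Replicates correlated at 0.970 to 0.975 across tested genes, which are not independent replicates. Snhg3, the host gene of the SNORA73 copies, was listed at 8.31 to 61.1 FPKM in the WT libraries and at 0 to 1.57 in those of the 1343KO line. The lines differ beyond that gene: Eif2s3y, a Y-linked gene, was at 13.8 to 24.0 FPKM in WT and at 0.198 to 1.28 in the 1343KO line. The part of such differences in the results below was not tested.

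As ES cells, the lines differed by at most 0.49 on the log2 scale for any member, and Nanog was the 1 member that passed the test. Nanog was at 142 and 153 FPKM in WT and at 206 and 210 FPKM in the 1343KO line, without overlap. Its difference passed (log2 difference 0.49 ± 0.08 (SE), adjusted p = 0.0126 by limma with Benjamini-Hochberg adjustment over all genes tested). So 1 of 6 members was higher and 5 did not pass, where 1.59% of all 16289 tested genes were higher and 2.12% lower. This call was lost when any 1 of the 4 day 0 libraries was left out: adjusted p came to 0.0849 and 0.054 on dropping WT replicates 1 and 2 in turn, and to 0.0565 and 0.0803 on dropping those of the 1343KO line. On the 4 day 0 libraries alone it was 0.0603.

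The other 5 members did not pass at day 0. Their 95% intervals, given below, are not adjusted and reflect the spread of these libraries alone. Pou5f1 was at 851 and 801 FPKM in the 1343KO line, a log2 difference of 0.12 (interval -0.09 to 0.32). Sox2 was at 188 and 187 FPKM (0.13, -0.05 to 0.31) and Sall4 at 74.2 and 66.9 FPKM (0.30, 0.05 to 0.55). Utf1 and L1td1 lay on the other side of WT. Utf1 was at 232 and 239 FPKM (-0.27, -0.51 to -0.02) and L1td1 at 355 and 321 FPKM (-0.18, -0.32 to -0.04). Unadjusted, 4 of the 6 had p under 0.05. In the 1343KO line Nanog stood above Sox2, and in WT below it, with no overlap between their libraries in either line.

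In WT embryoid bodies all 6 genes fell by day 8, and 5 of them were left with 4.72% to 11.1% of their day 0 means. Pou5f1, the Oct4 gene, was at 35.6 and 36.2 FPKM, 4.72% of its day 0 mean, and its log2 change was -4.37 ± 0.09 (SE, limma adjusted p = 4.87e-09). Utf1 was at 12.7 and 15.3 FPKM, 4.93% of day 0. L1td1 was at 30.9 and 31.7 FPKM, 8.17% of day 0. The remaining 2 are the partners of Oct4 in the core circuit. Nanog was at 12.9 and 12.3 FPKM (8.53% of day 0, log2 change -3.45 ± 0.08) and Sox2 at 18.5 and 19.5 FPKM (11.1%, -3.11 ± 0.08). Lower genes made up 24.5% of all tested in this comparison. By size of fall Pou5f1 ranked 17 of 16289 tested genes, Utf1 21, L1td1 59, Nanog 71 and Sox2 98.

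Sall4, the zinc finger member, fell later than the others. It was at 31.1 and 35.5 FPKM in WT at day 8, which is 58.4% of its day 0 mean (log2 change -0.76 ± 0.11 (SE), limma adjusted p = 0.000338). The 95% interval of its change, -1.01 to -0.51, did not meet those of the other 5, which ran from -4.58 to -2.92. Between days 8 and 16 it dropped further, to 13.3 and 11.8 FPKM (-1.34 ± 0.11, limma adjusted p = 4e-05), a change that ranked 207 among all falls. At day 8 Sall4 thus stood second among the 6 by mean level in WT, after Pou5f1 and overlapping L1td1, having been sixth at day 0.

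The other 5 genes also went on falling between days 8 and 16 in WT, by less. Of all tested genes 13.5% were lower in this comparison, and all 6 members were. Pou5f1 was at 23.6 and 18.6 FPKM at day 16 (log2 change from day 8 -0.75 ± 0.09 (SE), limma adjusted p = 0.00036). Nanog was at 6.83 and 7.45 FPKM (-0.74 ± 0.08) and Sox2 at 11.0 and 12.8 FPKM (-0.64 ± 0.08). L1td1, at 25.5 and 24.6 FPKM, was then the highest of the 6 (-0.31 ± 0.06). Utf1 was at 9.49 and 11.6 FPKM (-0.38 ± 0.11, limma adjusted p = 0.0282). Utf1 no longer passed when replicate 2 of WT day 8 (adjusted p = 0.18) or replicate 1 of WT day 16 (0.182) was dropped, or with no filter (0.0543). Against day 0, all 6 were lower at day 16, where 28.5% of all genes tested were. What was left ran from 2.77% of day 0 for Pou5f1 to 22.1% for Sall4. In bulk RNA a smaller number of cells with a gene on and less RNA per cell cannot be told apart.

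In the 1343KO line the same 16 days left the 6 genes at 49.4% to 96.9% of their day 0 means. Pou5f1 and L1td1 fell. Pou5f1 was at 469 and 453 FPKM at day 8 (log2 change -0.84 ± 0.09 (SE), limma adjusted p = 0.000252) and at 419 and 397 FPKM at day 16 (-1.02 ± 0.09, adjusted p = 7.75e-05). L1td1 was at 187 and 190 FPKM at day 8 (-0.83 ± 0.06, adjusted p = 2.62e-05) and at 176 and 182 FPKM at day 16 (-0.91 ± 0.06). For both genes every day 0 library was above every later one.

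Nanog, Utf1, Sall4 and Sox2 did not pass by day 8 in this line. So 2 of 6 members were lower at day 8, where 8.51% of tested genes were, and 3 of 6 at day 16, where 8.6% were. Nanog, at 176 and 185 FPKM on day 8 and 139 and 158 FPKM on day 16, was the third (day 16 log2 change -0.48 ± 0.08 (SE), limma adjusted p = 0.00244). Utf1 was at 227 and 203 FPKM and then 207 and 209 FPKM, with a 95% interval of -0.43 to 0.06 for its change over 16 days. Sall4 was at 68.0 and 57.0 FPKM and then 62.3 and 60.1 FPKM (-0.45 to 0.05).

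Sox2 had the smallest change of the 6 over 16 days in the 1343KO line. Its libraries read 188 and 187 FPKM at day 0, 188 and 188 FPKM at day 8, and 172 and 191 FPKM at day 16. The 95% interval of its log2 change was -0.18 to 0.19 by day 8 and -0.23 to 0.14 by day 16. By day 8 those of Pou5f1 (-1.05 to -0.63) and L1td1 (-0.97 to -0.69) lay wholly below it. The median of all genes rose by 0.11 over 16 days in this line and by 0.00 with median-of-ratios scaling, under which 5 of 6 members passed as lower at day 16, all but Sox2. By day 8 the sign of the Sox2 change turned with that scaling (-0.09) and with TPM scaling (-0.08), neither of which passed.

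Between days 8 and 16 no member passed in the 1343KO line (0 of 6 by limma, with 1, Nanog, at an unadjusted p under 0.05). Few genes did at all: 0.203% of those tested were lower and 0.602% higher. Nanog had the largest of the 6 differences, -0.28 ± 0.08 (SE, limma adjusted p = 0.186), with a 95% interval of -0.46 to -0.09. Those of Sox2 (-0.23 to 0.13), Sall4 (-0.27 to 0.22) and Utf1 (-0.29 to 0.20) held changes in either direction.

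At days 8 and 16 all 6 genes were therefore higher in the 1343KO line than in WT. At day 8 Nanog was 14.3 times the WT mean, Utf1 15.4 times, Pou5f1 12.8 times, Sox2 9.91 times, L1td1 6.04 times and Sall4 1.88 times. On the log2(FPKM + 1) scale the differences ran from 0.89 ± 0.11 (SE) for Sall4 (limma adjusted p = 0.000191) to 3.85 ± 0.11 for Utf1 (adjusted p = 4.72e-08). Genes higher in the 1343KO line made up 23.3% of all tested at day 8 and 28.5% at day 16. These comparisons share their libraries with the time courses above and are not separate evidence.

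By day 16 the ratio of the means was larger for each gene. Nanog was 20.9 times the WT mean, Utf1 19.7 times, Pou5f1 19.3 times, Sox2 15.3 times, L1td1 7.13 times and Sall4 4.87 times. Pou5f1, Nanog, Utf1 and Sox2 ranked 12, 13, 15 and 25 of the 16289 tested genes by how much higher they were in the 1343KO line. L1td1 ranked 144 and Sall4 288. Every alternative kept all 6 calls at both days, with log2 differences at day 16 of 4.06 to 4.38 for Pou5f1 and 2.07 to 2.28 for Sall4.

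**Figure D2:**
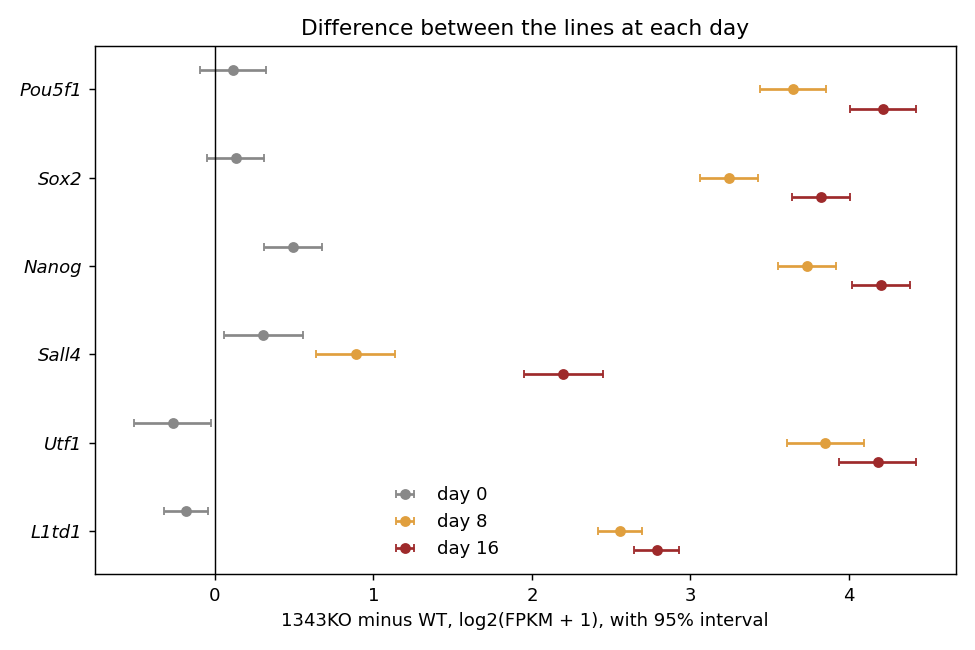
Difference between the 1343KO and WT lines on the log2(FPKM + 1) scale for each gene, as points with 95% intervals from the fit across all genes, in grey for day 0, orange for day 8 and dark red for day 16. The day 0 points lie between -0.27 and 0.49, and Sall4 has the smallest difference at day 8 (0.89) and at day 16 (2.20).

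The change over time differed between the lines. From day 0 to day 8 all 6 members changed less in the 1343KO line (limma, 15.6% of all tested genes higher in this difference), and from day 0 to day 16 again all 6 did (21.7%). From day 8 to day 16, 4 of 6 passed (8.5%), with Sall4 in front. The call of Sall4 for the first interval, a log2 difference of 0.58 ± 0.16 (SE, limma adjusted p = 0.0215), ended with TPM scaling (0.0779). It also ended without WT day 0 replicate 1 (0.0643), WT day 8 replicate 1 (0.0751), 1343KO day 0 replicate 2 (0.07) or 1343KO day 8 replicate 1 (0.0698).

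Ratios of FPKM within a library do not depend on how libraries are scaled, and they show how the proportions of the network shifted. Sox2 was at 0.221 to 0.233 of Pou5f1 in all 4 day 0 libraries, whichever the line. In the 8 later libraries it was at 0.401 to 0.686, so that the proportion was higher in both lines although Pou5f1 fell 36.1-fold over 16 days in WT and 2.02-fold in the 1343KO line. Nanog went the same way, from 0.187 and 0.201 of Pou5f1 to 0.361 and 0.340 at day 8 in WT, and from 0.242 and 0.262 to 0.374 and 0.408 in the 1343KO line. At day 16 the Nanog ratio was 0.289 and 0.400 in WT and 0.333 and 0.399 in the 1343KO line, overlapping day 8 in both. These ratios are given as a description and were not tested.

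L1td1 and Sall4 parted between the lines relative to Pou5f1, and for Utf1 the order of the lines turned around by day 8. L1td1 was at 0.496 and 0.511 of Pou5f1 in WT at day 0, 0.868 and 0.874 at day 8, and 1.08 and 1.32 at day 16. The 6 libraries of the 1343KO line read 0.400 to 0.458, so that L1td1 and Pou5f1 went down in step there. Sall4 was at 0.0764 and 0.0731 of Pou5f1 in WT at day 0 and at 0.871 and 0.979 at day 8, against 0.145 and 0.126 in the 1343KO line. Utf1 was at 0.374 and 0.372 of Pou5f1 in WT ES cells, above the 0.273 and 0.299 of the 1343KO line. At day 8 Utf1 was lower in WT, at 0.355 and 0.424, than in the 1343KO line, at 0.484 and 0.448. At day 16 the ranges for Utf1 overlapped, at 0.402 and 0.622 in WT and 0.493 and 0.526 in the 1343KO line.

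**Figure D3:**
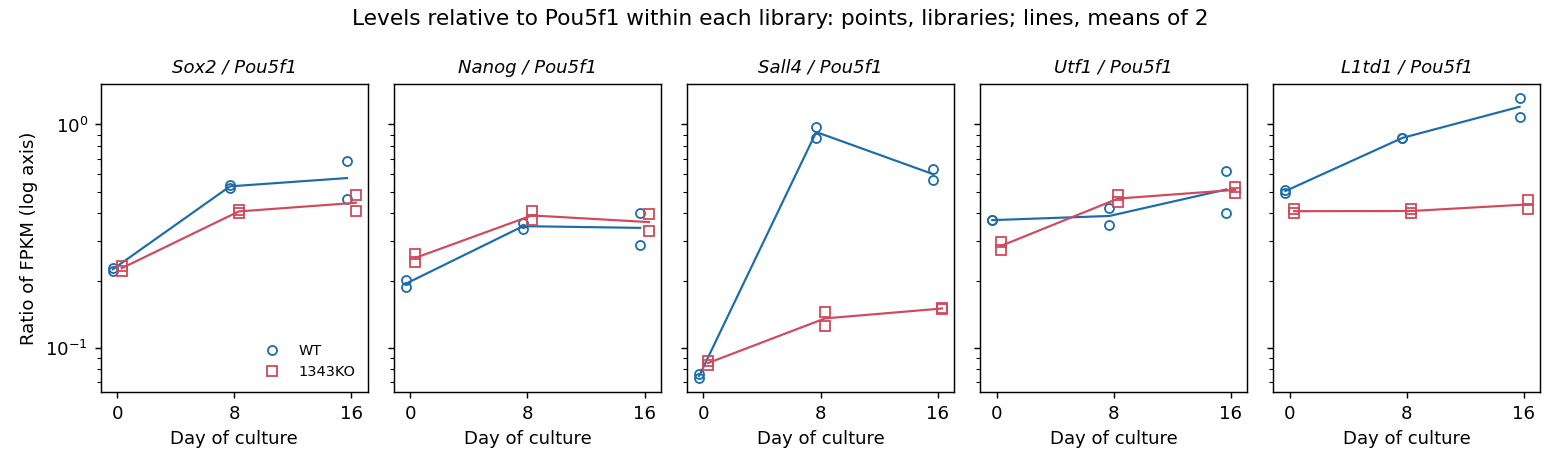
Ratio of each gene's FPKM to that of Pou5f1 in the same library (log axis) by day of culture, with circles for WT, squares for 1343KO and lines through the means of 2 libraries. Sox2 and Nanog are higher at day 8 than at day 0 in both lines, Sall4 separates the lines at day 8 (means 0.925 and 0.135), and L1td1 stays level in the 1343KO line.

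Genes that the core factors switch on were described from a list of 20 textbook targets of Oct4, Sox2 and Nanog, all of them tested. In WT all 20 fell by day 16, with a median log2 change of -3.93 beside 0.02 over all genes tested, of which 28.5% fell. In the 1343KO line 13 fell, 3 rose and 4 did not pass by day 16 (median -0.55 beside 0.11), where 18.2% of all genes tested rose and 8.6% fell. Dppa3, a maternal and germ line factor, rose by 1.69 and Lefty2, a Nodal antagonist, by 1.27, and Tdgf1, a Nodal co-receptor, fell by 1.41 and Dppa2, a partner of Dppa4, by 1.32. The third to rise was Lefty1 (0.53), whose call ended without 1343KO day 0 replicate 1 (limma adjusted p = 0.0537) or 2 (0.159), without 1343KO day 16 replicate 1 (0.0694) or 2 (0.15), with either other scaling, with no filter and with a pseudocount of 0.1.

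Between the lines, 19 of the 20 targets were higher in 1343KO embryoid bodies at day 8 and 1 lower, and all 20 were higher at day 16 (median 3.80 beside 0.07 over all genes). Of all genes tested 23.3% were higher and 19.6% lower at day 8, and 28.5% were higher and 24.1% lower at day 16. At day 16 Dppa3 (5.51), Dppa4, a nuclear factor of pluripotent cells (4.62), Lefty2 (4.60) and Lefty1 (4.44) differed most. The 1 lower target at day 8 was Lin28a (-0.57), which encodes a blocker of let-7 maturation, named after its value was seen. Lin28a was at 177 FPKM on average in WT at day 8, above its 129 at day 0, and at 119 in the 1343KO line. At day 0, 1 of 20 was higher (Dppa3, 1.80) and 19 did not pass, where 1.59% of all genes tested were higher. The Dppa3 call ended without WT replicate 1 (limma adjusted p = 0.0643) or 2 (0.137), without 1343KO replicate 1 (0.0907) or 2 (0.0953), with no filter (0.0583) and with a pseudocount of 0.1 (0.0599).

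**Figure D4:**
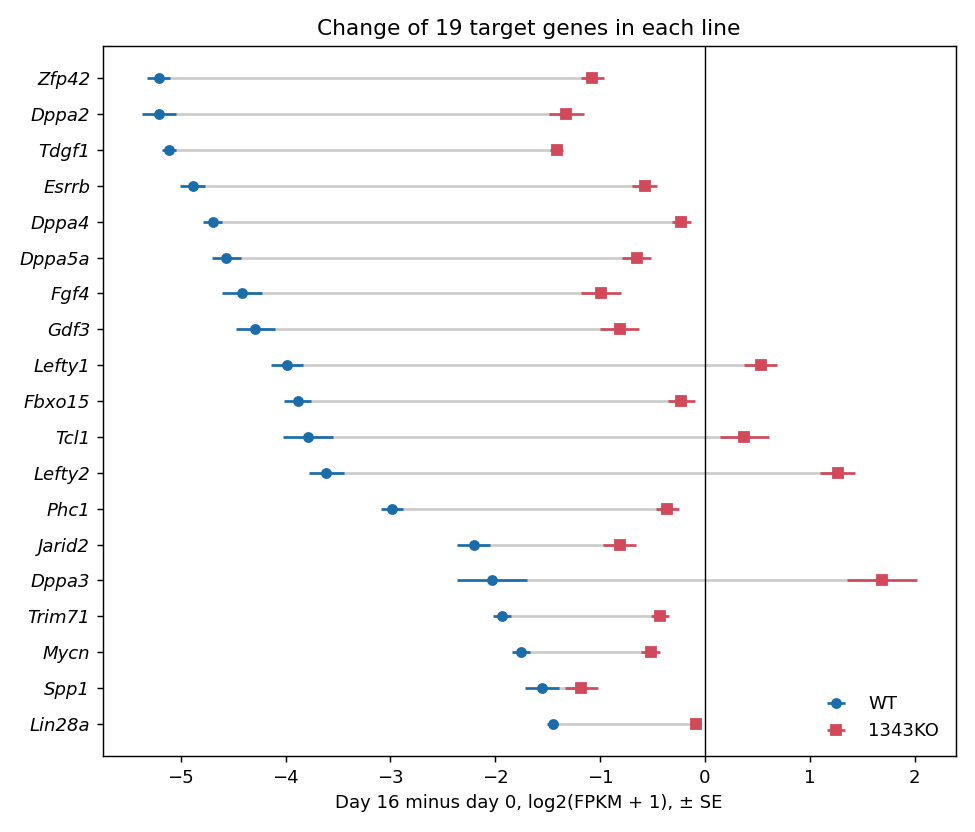
Change from day 0 to day 16 on the log2(FPKM + 1) scale (± SE) of 19 of the 20 textbook targets of Oct4, Sox2 and Nanog, with circles for WT and squares for the 1343KO line joined by grey lines, ordered by the WT change. Every WT value lies below its 1343KO value, from a wide gap for Lefty2 to a narrow one for Spp1.

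Proteins that bind Oct4 or Nanog, from the NuRD and esBAF chromatin complexes and other regulators, differed by less. Of 20 listed, 0 passed between the lines at day 0 by limma (4 at an unadjusted p under 0.05), where 1.59% of all genes tested were higher and 2.12% lower. At day 16, 18 were higher in the 1343KO line and 2 did not pass (median 0.96 beside 0.07), where 28.5% of all genes tested were higher. Nr0b1, a nuclear receptor that represses Oct4 activity (3.82), Rif1, a replication timing factor (2.25), Parp1, a DNA repair enzyme (1.82), and Ctbp2, a corepressor (1.60), led. At day 8, 12 were higher, 7 did not pass and 1 was lower, Ogt, the O-GlcNAc transferase (-0.29). Of all genes tested 23.3% were higher and 19.6% lower at day 8. The Ogt call ended without WT day 8 replicate 1 (limma adjusted p = 0.0851) or 1343KO day 8 replicate 2 (0.0998).

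Markers of other cells that use the same genes were read beside these levels. Of 9 germ cell markers, 8 were higher in the 1343KO line at day 8 and 1 did not pass (median 1.80 beside 0.06), where 23.3% of all genes tested were higher. The list summed to 102 to 116 FPKM there against 24.0 to 27.2 in WT. At day 0 it summed to 64.2 and 60.8 FPKM in the 1343KO line and to 54.9 and 50.3 FPKM in WT. Between the lines 0 of 9 passed at day 0 by limma (2 at an unadjusted p under 0.05), where 1.59% of all genes tested were higher. In WT 6 of the 9 fell by day 8, 2 rose and 1 did not pass, where 24.5% of all genes tested fell. Tfap2c, a factor of germ cell and trophoblast fate (3.09), Mael, a piRNA pathway protein (2.45), Dazl, a germ cell RNA-binding protein (2.04), and Dnd1, another (1.94), differed most. Of the 1343KO sums at day 8, Tfap2c gave 41.3 and 38.2 FPKM and Kit, also in the list, 20.3 and 17.2 FPKM. Ddx4, a germ cell RNA helicase, fell within the 1343KO line by day 8 (-1.30), while Prdm1, a repressor that sets up the germ line (1.78), and Tfap2c (1.04) rose. In all 4 of the 9 rose, 1 fell and 4 did not pass, where 15% of all genes tested rose and 8.51% fell. Sycp3, of the meiotic chromosome axis, also rose (1.12). The Sycp3 call ended without 1343KO day 0 replicate 2 (limma adjusted p = 0.121) or 1343KO day 8 replicate 1 (0.121).

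Neural progenitor markers differed between the lines in both directions. Of 7 tested of 10 listed, the 1343KO line had 3 higher and 3 lower at day 16 (median -0.25 beside 0.07). Of all genes tested 28.5% were higher and 24.1% lower, and so small a list cannot be told from those shares. Olig2 (1.74) and Pax6 (1.32), transcription factors of neural precursors, were higher. Zic1 (-1.34), another factor, and Fabp7 (-1.28), a radial glia protein, were lower. Mean levels of Olig2 and Pax6 were lower at day 16 than at day 0 in both lines. Olig2 went from 10.99 to 0.309 FPKM in WT and from 12.54 to 3.32 FPKM in the 1343KO line. Pax6 went from 3.36 to 1.12 FPKM in WT and from 6.37 to 4.3 FPKM in the 1343KO line. Those of Zic1 and Fabp7 were higher at day 16 than at day 0 in both lines, by more in WT. None of the list passed at day 16 with a mean of at least 5 FPKM, which left fewer genes to test. The Fabp7 call ended without 1343KO day 16 replicate 1 (limma adjusted p = 0.0507). The list summed to 22.9 and 23.4 FPKM in the 1343KO line at day 16 and to 27.1 and 26.7 FPKM in WT. Of these sums Nes alone gave 8.32 FPKM on average in the 1343KO line and 10.1 in WT.

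Extraembryonic endoderm markers were lower in the 1343KO line. Of 8, 7 were lower at day 16 and 1 did not pass (median -2.96 beside 0.07), with the plasma protein genes Afp (-7.81), Apoa1 (-6.25) and Ttr (-5.98) and the endocytic adaptor Dab2 (-3.68) in front. The list summed to 10059.5 and 10108 FPKM in WT at day 16 and to 106 and 93.4 FPKM in the 1343KO line. It was already lower at day 0, at 80.2 and 66.9 FPKM against 162 and 167 FPKM. There 5 of 8 were lower and 3 did not pass (median -2.30), and 3 were lower on the 4 day 0 libraries alone. Of all genes tested 24.1% were lower at day 16 and 2.12% at day 0. Within the 1343KO line 5 of the 8 rose over 16 days and 3 did not pass (median 0.90 beside 0.11), where 18.2% of all genes tested rose. That count was 3 without 1343KO day 16 replicate 1. In WT 5 rose, 1 fell and 2 did not pass over 16 days (median 1.40 beside 0.02), where 28.5% of all genes tested fell. The 1343KO change minus the WT change had a median of -0.32 beside 0.08 over all genes. In that difference 4 of 8 were lower, 2 higher and 2 did not pass, where 21.7% of all genes tested were higher. No gene of this list was at 0 in any library. The part of these other cells in the levels of the 6 genes was not tested.

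The genes most like each member were taken by Pearson correlation of log2(FPKM + 1) over the 12 libraries, among 8759 named genes whose mean reached 5 FPKM. The 12 points share their lines and days, and a correlation takes no account of how far a gene moved. For Pou5f1 they included Psmc5, Zfp42, Trim28 and Ing5 (r = 0.997 to 0.998). For Sox2 they were Nfatc2ip, Dppa4, Fbxo15, Dppa5a and G3bp1 (r = 0.995 to 0.998), and for Nanog Nfatc2ip, Zfp992, Dppa5a, Fbxo15 and Slc7a3 (r = 0.996 to 0.998). Nfatc2ip, which led for both, was at 29.5 FPKM on average in WT ES cells and 3.13 in WT at day 16, against 34.5 and 29.5 in the 1343KO line.

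Utf1 and L1td1 were matched by different genes, with Dppa5a alone shared between Utf1 and the pair of Sox2 and Nanog. For Utf1 they were Esrrb, Atp5a1, Dmrt1, Dppa5a and Ppia (r = 0.994 to 0.997). For L1td1 they were Tdgf1, Zfp985, Xrcc5, Dppa2 and Uba2 (r = 0.995 to 0.998). Tdgf1, like L1td1, fell part of the way in the 1343KO line, from 459 to 171 FPKM by day 16, where WT went from 473 to 12.7 FPKM. Sall4 stood apart again, its list including Gmnn, Baz2a, Hdgf and Impdh2 (r = 0.988 to 0.995), of which Gmnn encodes the replication inhibitor geminin. Gmnn was at 52.8, 31.6 and 15.5 FPKM in WT on days 0, 8 and 16 and at 57.3, 51.8 and 52.8 FPKM in the 1343KO line.

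Among the 6 genes themselves, the correlation over 12 libraries was 0.874 to 0.997, lowest for Sall4 with L1td1 and highest for Sox2 with Nanog. Over the 6 WT libraries it was 0.817 to 0.999. Over the 6 libraries of the 1343KO line it was 0.0945 to 0.991, with Pou5f1 and L1td1 the most alike and Sox2 and Sall4 the least.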

How the data were processed

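The 12 libraries were made from poly(A) RNA, per the labels. The authors deposited FPKM per gene. Per the submitters' processing notes they used Cufflinks 2.1.1 and GRCm38 (mm10); the sources used here do not give the aligner, annotation or filters. Starts in the table were 1 below those of GENCODE M21 for 99.1% of matched genes, so GENCODE coordinates, counted from 1, are given. Groups came from the titles. The labels do not say whether replicates were separate cultures, so the p-values reflect the spread of these libraries alone, and that may be technical.

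Genes that reached 1 FPKM in 2 or more libraries (16289, all 6 members among them) were fitted as log2(FPKM + 1) with 1 mean per group over all 12 libraries, which share 1 estimate of the spread (limma 3.58.1, R 4.3.3, empirical Bayes with trend, 6 residual degrees of freedom). A pseudocount of 1 understates the change of low genes. P-values are two-sided, adjusted by Benjamini-Hochberg over all genes within each of 12 contrasts, and passed under 0.05. Intervals are 95%, from the same fit, and not adjusted. Depth was estimated from values of single-transcript genes of at least 1500 bases, assuming fragments of 200 bases, with 86.1% to 89.0% of values for 1 to 3 fragments within 5% of a whole number; no count test was run. The members, the 6 lists (a few genes stand in more than 1) and the motifs were chosen with earlier results of these data known. Named genes are the members, genes that overlap them, up to 4 called members per list with the largest change, and the 5 most alike genes, of which some are not reported here; a few others are named because a count was small. The alternatives tried were other scalings (TPM, median-of-ratios), another pseudocount (0.1), other filters (none, or a mean of 5 FPKM), robust empirical Bayes, a replicate block, a day's 4 libraries alone and leaving out each library. Scripts were tested on simulated data. Tables and figures were made in Python 3.11.15 with numpy 2.4.6, pandas 2.3.3 and matplotlib 3.10.9.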

Additional observations from a re-analysis of the deposited data

Results flagged for a closer look

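The change over time differed between the lines, by the interaction term of the limma fit, for the genes and intervals that follow. Values are the 1343KO change minus the WT change on the log2(FPKM + 1) scale. From day 0 to day 8 the difference was 3.53 for Pou5f1, 3.11 for Sox2, 3.24 for Nanog, 0.58 for Sall4, 4.12 for Utf1 and 2.74 for L1td1. The adjusted p was 5.25e-07 for L1td1, 6.95e-07 for Pou5f1, Sox2, Nanog and Utf1, and 0.0215 for Sall4. From day 0 to day 16 it was 4.10 for Pou5f1, 3.70 for Sox2, 3.71 for Nanog, 1.89 for Sall4, 4.45 for Utf1 and 2.97 for L1td1, with adjusted p up to 2.15e-05. Among positive differences Utf1 ranked 9 in both intervals, and by size in either direction it ranked 30 and 70 of 16289 tested genes.

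From day 8 to day 16 it was 1.31 for Sall4 (adjusted p = 0.000718), 0.58 for Sox2 (0.00865), 0.57 for Pou5f1 (0.0169) and 0.46 for Nanog (0.0243). The call of Nanog ended without WT day 8 replicate 1 (adjusted p = 0.0724), WT day 16 replicate 1 (0.0794), 1343KO day 8 replicate 1 (0.0744) or 1343KO day 16 replicate 2 (0.0827). That of Pou5f1 ended without WT day 8 replicate 2 (0.0525), 1343KO day 8 replicate 2 (0.0561) or 1343KO day 16 replicate 1 (0.0589). Utf1 (0.33, adjusted p = 0.183) and L1td1 (0.23, adjusted p = 0.109) did not pass, and L1td1 did with TPM scaling (0.0423).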

How the results depend on the processing

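Of 1386 values of the 6 genes under the alternatives, 1353 kept their direction and their side of the threshold, 20 lost a call, 5 gained one and 8 turned in sign. The count of members that passed at day 0 between the lines, 1, was 0 on the 4 day 0 libraries alone (limma, 4 at an unadjusted p under 0.05) and 0 to 1 with each library left out (1 to 3 at an unadjusted p under 0.05 in the 0 cases). The count in the 1343KO line from day 0 to day 16, 3, was 5 with median-of-ratios scaling, where Sall4 (-0.35, adjusted p = 0.0412) and Utf1 (-0.33, adjusted p = 0.0411) also passed. Nanog passed by day 8 in that line with median-of-ratios (-0.30, adjusted p = 0.0278) and TPM scaling (-0.30, adjusted p = 0.0448). The turns in sign were all among values that did not pass. In the 1343KO line Sox2 from day 0 to day 8 was -0.0851 with median-of-ratios and -0.0842 with TPM scaling, and Sall4 from day 8 to day 16 was 0.0177 with TPM scaling. With each library left out, the change from day 8 to day 16 ran from -0.15 to 0.10 for Sall4, from -0.13 to 0.0331 for Utf1 and from -0.13 to 0.0224 for Sox2, and that of Sox2 from day 0 to day 16 from -0.12 to 0.0279. TPM scaling moved the median of all genes between the lines at day 8 from 0.06 to -0.07. Replicate numbers did not pair the libraries: over 15 pairs of groups, deviations correlated at -0.036 to 0.036. With the replicate number as a block the counts were 1 at day 0, 6 at day 8 and 6 at day 16 between the lines, 2 and 3 within the 1343KO line, and no call of a member changed. Counts of the lists moved by over 1.5 times, or to or from 0, in 102 of 1386 fits, and a mean of at least 5 FPKM left fewer genes to test. With that filter the germ cell count between the lines was 4 at days 8 and 16. The count of targets that passed from day 0 to day 8 in the 1343KO line was 16, and 8 without 1343KO day 0 replicate 1, 9 without its replicate 2 and 10 without either day 8 library. At about 65 fragments, the lowest Utf1 value is the least precise by counting alone.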

Other observations

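Relatives of the core factors in the SALL, SOX and POU families did not all follow them. Of 11 listed, 9 were tested, and at day 16 all 9 were higher in the 1343KO line than in WT (median log2 difference 1.06 beside 0.07 over all genes tested, where 28.5% were higher). Sox15 (3.61), Pou3f1 (3.21), Sox3 (2.23) and Sall1 (1.76) differed most. Sox15, a SOX factor of ES cells, was at 9.19 FPKM on average in WT ES cells and at 1.14 in WT at day 16, against 15.7 and 25.4 in the 1343KO line. With a mean of at least 5 FPKM, 5 of the list passed at day 16.

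Within the 1343KO line 4 of the 9 rose over 16 days, 2 fell and 3 did not pass. Sall2, a relative of Sall4, rose by 1.75 to 19.3 FPKM on average, and Sall3 fell by 1.35 to 0.90 FPKM. Sox21 (1.11) and Sox3 (1.04), which act in neural cells, rose, where 18.2% of all genes tested did. Sox21 stayed low, at 1.02 FPKM on average at day 0 and 3.37 at day 16. Sox1, which also stands in the neural progenitor list, went the other way, from 4.10 to 2.47 FPKM on average. The Sox3 call ended without 1343KO day 0 replicate 1 (limma adjusted p = 0.069) or 1343KO day 16 replicate 2 (0.0695), and the count of 6 called was 3 without the latter. In WT Sall2 was at 4.34 FPKM at day 0 and 10.1 at day 16, so it went up where Sall4 went down.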
